A study of Mus musculus with 6 samples.

Results

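The GIMAP genes (GTPases of the immunity-associated protein family) of the mouse were followed in whole spleen, with all probe sets whose platform gene symbol was Gimap1, Gimap3, Gimap4, Gimap5, Gimap6, Gimap7, Gimap8 or Gimap9. These were 11 probe sets for 8 genes, out of 34945 probe sets that carried 1 gene symbol each and stood for 18193 genes. The spleens came from Balb/c mice aged 6 to 8 weeks: 3 mice without exposure (control) and 3 given perfluorooctane sulfonate (PFOS, a persistent fluorinated surfactant) into the stomach at 10 mg per kg body weight daily for 3 weeks. RNA of each spleen was hybridized to 1 Affymetrix Mouse430_2 array, and expression is given as the deposited RMA value on the log2 scale, relative to the rest of the array. RMA leaves no absolute amount, and in whole tissue more cells of a type and more RNA per cell cannot be told apart.

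GIMAP proteins are small GTP-binding proteins of lymphocytes that sit on intracellular membranes, and their genes form a single cluster. They are known for setting how long resting lymphocytes live. Loss of Gimap5 causes lymphopenia in rats and mice, and loss of Gimap1 depletes mature T and B cells in mice. In T cells the proteins are linked to the BCL2 family, which decides between survival and apoptosis.

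Pearson correlations between arrays over the 22434 tested probe sets were 0.998 to 0.999 for arrays of the same group and 0.969 to 0.970 across groups. The labels call the mice female, yet on all 6 arrays the Y-linked gene Eif2s3y lay between 9.62 and 9.91 at its brighter probe set and the 3 Xist probe sets lay between 3.71 and 5.86. The label and these values disagree in both groups alike. The labels name biological replicates, and p-values measure only the spread between these arrays, which may be partly technical. Their number limits the precision. Limma called 63.9% of all tested probe sets (adjusted p under 0.05), 36.4% as higher and 27.4% as lower, so a call alone was common on these arrays. By the brightest probe set of each gene, 25.5% of all genes were called lower. By the same rule, all 11 measured liver markers were called lower in this comparison (median -3.62, led by Alb and Fga). In PFOS the means of Ahsg, Apoa1, Cyp2e1, Fga, Fgb, Fgg and Hpx lay at 3.59 to 5.50. That is under the filter floor of 5.62, so these genes were tested only because of their control values. Their direction was thereby fixed and is no evidence. The PFOS means of Alb, Apoa2, Apoh and Ttr lay above the floor. The liver marker Ttr changed by -1.37 at its brightest probe set but by -7.43, -6.90 and -5.72 at others. Also called lower were all 12 markers of red cell precursors (median -1.60, led by Cldn13 and Kel). The same held for all 11 of mitosis (median -1.42, led by Ccnb2 and Bub1). With scaling on the labelling transcripts described next, 1 red cell precursor gene turned. The part of these markers in the GIMAP values was not tested.

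All 8 GIMAP genes were higher in PFOS spleens. Each of the 11 probe sets passed the filter on low values and was called higher, against 36.4% of all probe sets. The 3 PFOS values were above the 3 control values at all 11, against 39.4% of all probe sets. The rises ran from 0.16 to 0.75 on the log2 scale with a median of 0.56 (1.47-fold), while the median change of all tested probe sets was 0.03. A rise of at least 0.5 was seen in 6 of the 11 probe sets and in 1.82% of all tested probe sets. Scaling the arrays on the bacterial transcripts added before labelling raised every change on the arrays by 0.53 and gave a GIMAP median of 1.09. These transcripts lay at 6.65 ± 0.01 in control and 6.11 ± 0.02 in PFOS (SD, n = 3). The GIMAP genes, taken by their brightest probe sets, lay 0.51 above the median of all genes in the deposited values. This scaling and that on ribosomal protein genes each shift every change alike. The gap is therefore the same under both by arithmetic, which tests nothing.

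**Figure D1:**
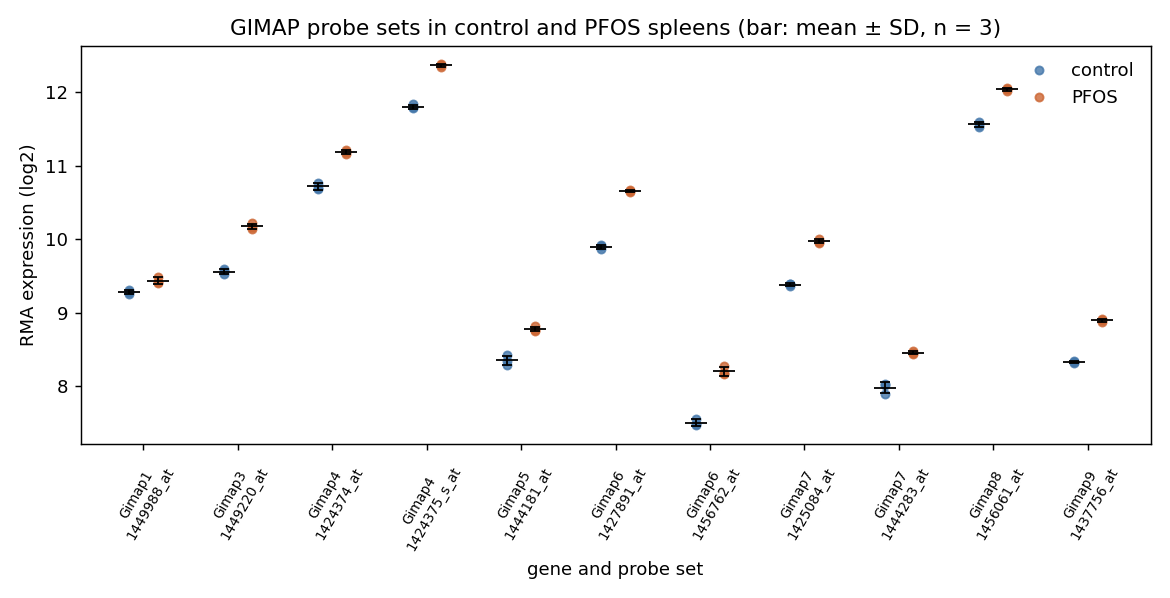
RMA expression on the log2 axis of each GIMAP probe set in 3 control and 3 PFOS spleens; points are arrays and black bars are the mean ± SD. The PFOS points lie above the control points at all 11 probe sets, with the widest step at Gimap6 (0.75) and the narrowest at Gimap1 (0.16).

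The windows around the transcription starts of 3 genes are printed because these genes bound the pattern. Gimap6 had the largest rise, Gimap1 the smallest, and Gimap4 has 2 probe sets whose measured rises differed. They were chosen after their values were seen. Each window runs from 250 bases before the start to 50 after it, 5′ to 3′ on the strand of the gene, from RefSeq on GRCm38.p6. That of Gimap6 is chr6:48708195-48708494 (minus strand), that of Gimap4 chr6:48684328-48684627 (plus strand) and that of Gimap1 chr6:48738797-48739096 (plus strand). Capitals mark matches on either strand to letters preferred by lymphocyte transcription factors: AGGAAG (ETS family), TGTGGT (RUNX family), TGGGAA (Ikaros) and TGTTTAC (FOXO).
Gimap6: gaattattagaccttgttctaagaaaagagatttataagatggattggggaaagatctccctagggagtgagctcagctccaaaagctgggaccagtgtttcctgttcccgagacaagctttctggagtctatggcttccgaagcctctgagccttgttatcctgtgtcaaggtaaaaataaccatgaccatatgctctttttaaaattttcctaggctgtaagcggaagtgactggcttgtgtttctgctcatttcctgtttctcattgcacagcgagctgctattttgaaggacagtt
Gimap4: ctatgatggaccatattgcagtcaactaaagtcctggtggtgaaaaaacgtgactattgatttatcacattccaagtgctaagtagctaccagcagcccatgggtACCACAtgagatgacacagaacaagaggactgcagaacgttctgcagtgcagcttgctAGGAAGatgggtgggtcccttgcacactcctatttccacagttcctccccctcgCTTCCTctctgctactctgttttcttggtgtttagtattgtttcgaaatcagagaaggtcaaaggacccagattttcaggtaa
Gimap1: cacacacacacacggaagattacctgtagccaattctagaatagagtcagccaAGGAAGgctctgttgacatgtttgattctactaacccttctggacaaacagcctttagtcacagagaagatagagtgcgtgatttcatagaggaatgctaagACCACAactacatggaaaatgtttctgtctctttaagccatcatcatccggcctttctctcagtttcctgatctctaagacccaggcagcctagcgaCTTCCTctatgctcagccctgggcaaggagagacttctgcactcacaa

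AGGAAG or its reverse complement occurred in 7 of the 9 GIMAP windows (Gimap8 has 2 overlapping windows, of which 1 held it), against 35.4% of 32851 windows of the same length. Gimap6 was the gene without it, although its window holds the near match cggaag on both strands. Only exact matches were searched, so near matches are not marked or counted. TGTGGT was found in 3 GIMAP windows, those of Gimap1, Gimap4 and Gimap7, against 16.8% of all windows. TGGGAA, found in 25.6% of all windows, and TGTTTAC, found in 3.65%, each occurred in the window of Gimap3 and in no other GIMAP window. The G and C content of the GIMAP windows ran from 43.3% to 57.3%, against a median of 52.7% for all windows. Only the windows of Gimap5 (55.7%) and Gimap9 (57.3%) were above that median. These matches describe letters and not binding.

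Gimap5 and Gimap3 encode a closely related pair that supports mature T cells in the mouse and is reported to bind Bcl2 and Bcl2l1. The Gimap5 probe set 1444181_at read 8.42, 8.35 and 8.29 in the control spleens and 8.76, 8.81 and 8.76 in the PFOS spleens. The lowest PFOS value was thus clear of the highest control value, and the difference was 0.42 ± 0.04 (SE; limma adjusted p = 4.79e-05). Gimap3, which is a pseudogene in humans, read 9.52, 9.57 and 9.59 in control and 10.15, 10.17 and 10.22 in PFOS at 1449220_at. It rose by 0.62 ± 0.03 (limma adjusted p = 2.52e-06), or 1.53-fold, and only 0.611% of all tested probe sets rose by more. The Gimap3 rise exceeded that of Gimap5 by 0.20 ± 0.06. Whether either probe set also binds the transcript of the other gene was not tested.

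Gimap1, which mature T and B cells need in the mouse, changed least. Its probe set 1449988_at read 9.28, 9.26 and 9.31 in control and 9.49, 9.41 and 9.41 in PFOS. The groups did not overlap, but the gap between them was small, with a rise of 0.16 ± 0.03 (limma adjusted p = 0.00345), or 1.11-fold. Among all tested probe sets 27.6% rose by more than Gimap1. The rise was 0.085 with arrays scaled on ribosomal protein genes (limma adjusted p = 0.0456) and 0.69 with arrays scaled on the labelling transcripts.

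Gimap6 and Gimap7 come next to each other in the cluster and had some of the larger rises. Gimap6 is linked to autophagy through its binding to Gabarapl2. Its brighter probe set, 1427891_at, read 9.87, 9.90 and 9.93 in control and 10.64, 10.67 and 10.65 in PFOS, a rise of 0.75 ± 0.03 (limma adjusted p = 3.40e-07), or 1.69-fold. This was the 43rd largest rise among all tested probe sets. The dimmer one, 1456762_at, went from 7.55, 7.47 and 7.49 to 8.27, 8.18 and 8.16, a rise of 0.70 ± 0.04. The rises at the probe sets differed by 0.06 ± 0.06 (exact two-sided permutation p = 0.5), so both gave the largest rises in the family with no separation between them.

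Gimap7, whose human counterpart stimulates GTP hydrolysis by another GIMAP protein, had a rise of 0.60 ± 0.03 at 1425084_at (limma adjusted p = 1.44e-06). That probe set read 9.39, 9.39 and 9.36 in control and 9.95, 9.97 and 10.00 in PFOS. Its other probe set, 1444283_at, went from 8.02, 7.90 and 8.03 to 8.47, 8.45 and 8.44. The rise there was 0.48 ± 0.04, and the difference between the probe sets of 0.12 ± 0.05 left the arrays of the groups overlapping (exact two-sided permutation p = 0.2).

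Gimap4, Gimap8 and Gimap9 complete the family. Gimap4 is a T and B cell protein that speeds the death of T cells already committed to apoptosis in mice. At 1424375_s_at it read 11.84, 11.78 and 11.80 in control and 12.38, 12.37 and 12.34 in PFOS, a rise of 0.56 ± 0.03 (limma adjusted p = 2.14e-06). At 1424374_at it read 10.77, 10.70 and 10.69 in control and 11.21, 11.19 and 11.16 in PFOS, a rise of 0.47 ± 0.03. The within-array difference of these probe sets was 1.07 to 1.11 in control and 1.17 to 1.19 in PFOS, without overlap. The exact two-sided permutation p was 0.1, unadjusted and the smallest that 3 arrays against 3 allow. It cannot settle whether the rises were unequal. The suffix _s_at marks probes that can match more than 1 transcript.

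Gimap8, the longest family member with several GTP-binding domains in 1 protein, read 11.60, 11.55 and 11.53 in control and 12.05, 12.04 and 12.02 in PFOS at 1456061_at. It rose by 0.48 ± 0.03 (limma adjusted p = 6.23e-06), or 1.39-fold. Gimap9 read 8.34, 8.32 and 8.32 in control and 8.91, 8.87 and 8.90 in PFOS at 1437756_at. Its rise was 0.57 ± 0.03 (limma adjusted p = 1.37e-06), or 1.48-fold. In both genes the gap between groups was far wider than the spread within either.

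The measured rises varied in size across the family. For each of the 28 pairs of genes, the within-array log2 ratio of their brightest probe sets was compared between groups. The ratio separated the groups in 21 pairs. Each of them had an exact two-sided permutation p of 0.1, the smallest possible, and 0.133 after Benjamini-Hochberg adjustment over the pairs. No pair could pass 0.05 in this design. How often pairs of other genes separate was not counted, so the 21 pairs have no background to be set against. Gimap6 rose more than each of the other 7 genes, by 0.14 ± 0.02 over Gimap3 and by 0.60 ± 0.03 over Gimap1. Gimap3, Gimap7, Gimap9 and Gimap4 came next, from 0.62 down to 0.56, and their ratios overlapped between groups in every pairing among these genes. Gimap8 and Gimap5 followed at 0.48 and 0.42 and overlapped with each other (a difference of 0.05 ± 0.02). Gimap1 stood below all 7 others, by 0.27 ± 0.06 even against Gimap5. These ratios do not depend on how arrays are scaled by a constant. They do depend on the probe set: the dimmer probe sets of Gimap7 (0.48) and Gimap4 (0.47) rose no more than that of Gimap8 (0.48). Probe sets of 1 gene differed by 0.06 to 0.12, as much as Gimap4 over Gimap8 (0.08) or Gimap9 over Gimap8 (0.09), so the order between these middle genes is not settled. The dimmer Gimap6 probe set rose by 0.70, beside 0.62 for Gimap3, so the order of Gimap6 and Gimap3 is not settled either.

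**Figure D2:**
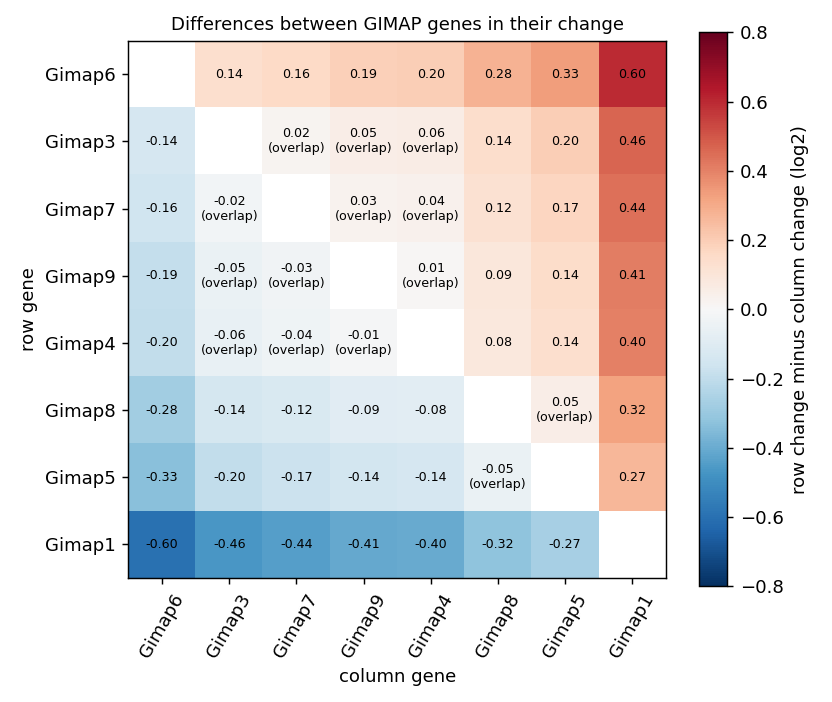
Difference between GIMAP genes in their PFOS minus control change (log2; row gene minus column gene), with genes ordered by the size of their rise and "overlap" marking pairs whose within-array ratio overlapped between the 3 control and 3 PFOS spleens. The row of Gimap6 is positive and the row of Gimap1 negative throughout, and the 7 overlapping pairs are those among Gimap3, Gimap7, Gimap9 and Gimap4 and that of Gimap8 with Gimap5.

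The 8 genes are consecutive protein-coding genes on chromosome 6 in the RefSeq gene table (GRCm38.p6, used here for order only). The order is Gimap8, Gimap9, Gimap4, Gimap6, Gimap7, Gimap1, Gimap5 and Gimap3, so the smallest rise lay inside the cluster, between those of Gimap7 and Gimap5. Of the 5 genes on either side, 6 had a tested probe set. On the Gimap8 side, Lrrc61 rose by 0.32 ± 0.03 (limma adjusted p = 5.34e-05), Rarres2, the gene of the chemoattractant chemerin, by 0.21 ± 0.03 and Repin1 by 0.20 ± 0.04. On the Gimap3 side, the membrane protein gene Tmem176b rose by 0.18 ± 0.03, while Tmem176a changed by 0.05 ± 0.03 (limma adjusted p = 0.136) and Aoc1 by -0.03 ± 0.05 (limma adjusted p = 0.619). The 2 other probe sets of Tmem176a were called higher, at 0.13 and 0.22, while the second probe sets of Rarres2 (0.07) and Repin1 (0.11) were not called. Each neighbour thus changed by less than the 7 GIMAP genes other than Gimap1. The differences between neighbours and members were not tested.

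**Figure D3:**
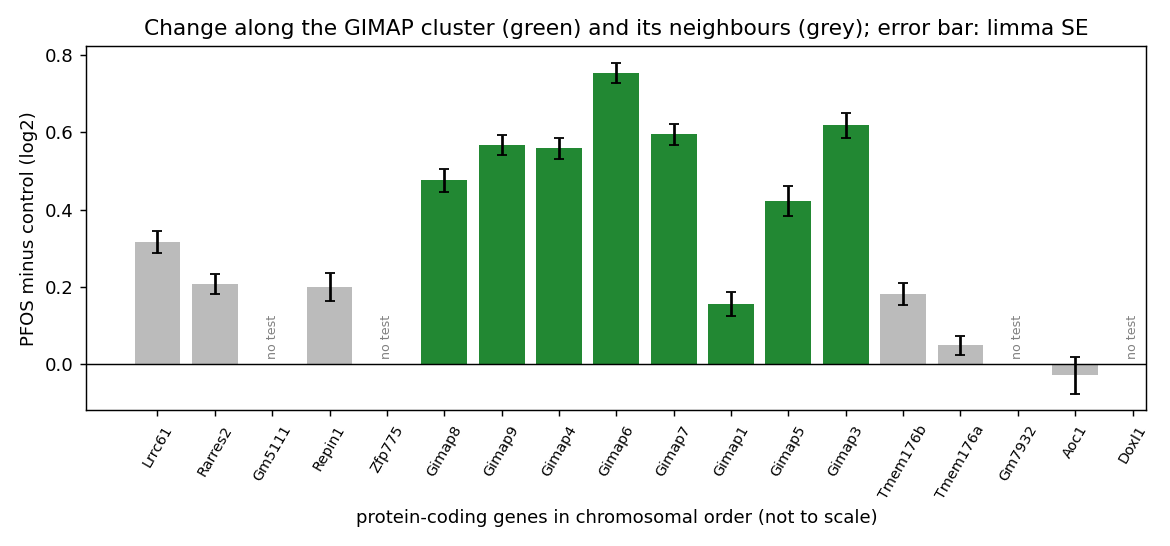
PFOS minus control change (log2, brightest probe set of a gene, limma SE as error bar) of the GIMAP genes in green and of 5 protein-coding genes on each side in grey, in chromosomal order and not to scale. The green bars other than Gimap1 reach 0.42 to 0.75, and the grey bars lie between -0.03 and 0.32; genes without a tested probe set carry no bar.

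Partners of GIMAP proteins did not move as a group with them. Of 7 measured partner genes, 2 were called higher, against 39.9% of all genes, and 2 lower, against 25.5%, with a median change of -0.0011 beside 0.05 for all genes. Bcl2, the survival protein reported to bind Gimap3 and Gimap5, rose by 0.72 ± 0.04 (limma adjusted p = 2.29e-06). The 4 remaining Bcl2 probe sets were called higher too, by 0.08 to 0.48. Bcl2l1, which encodes the survival protein BCL-XL and is abundant in red cell precursors, fell by 0.28 (limma adjusted p = 0.000265). Gabarap, an autophagy adaptor, rose by 0.19 ± 0.03, while Gabarapl2, the partner of Gimap6, changed by -0.07 ± 0.03 (limma adjusted p = 0.0784) and Gabarapl1 by -0.0011 ± 0.03. Gsk3b, a kinase that Gimap5 restrains in T cells, was lower at its brightest probe set, at -0.19 ± 0.03. Of its 5 other probe sets, 2 were called higher, at 0.14 and 0.18, and another was called lower, at -0.35. Its direction is therefore not settled. Ctnnb1, the beta-catenin target of that kinase, changed by 0.04 ± 0.03 at its brightest probe set (limma adjusted p = 0.200), while its 2 other probe sets were called lower, at -0.31 and -0.22. With arrays scaled on the labelling transcripts all 7 were called higher, as were 12063 of all 13101 genes. The partner median was then 0.05 below that of all genes.

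Within the wider BCL2 family, 6 of 11 measured genes were called higher, against 39.9% of all genes, and 2 lower, against 25.5%, with a median of 0.10. Scaling on ribosomal protein genes turned the balance to 3 higher and 4 lower. Over all 13101 genes the same scaling gave 3551 higher and 4602 lower. After Bcl2, the largest rise was that of Bmf, a death-promoting member, at 0.28 ± 0.03. Bcl2l11, which encodes the death-promoting protein BIM, fell by 0.41 (limma adjusted p = 6.19e-06). That direction and that of Bcl2l1 turned with scaling on the labelling transcripts. All 11 genes were then called higher, as were 12063 of all 13101 genes.

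Genes that keep naive T cells alive and circulating were called higher in 9 of 11 measured cases, against 39.9% of all genes. The other 2 were called lower, against 25.5% of all genes, and the median was 0.29. Il7r, the receptor for the T cell survival cytokine interleukin 7, rose by 0.68 ± 0.03 (limma adjusted p = 6.13e-07), and Lef1, a transcription factor of naive T cells, by 0.56 ± 0.03. Foxo3 fell by 0.71 (limma adjusted p = 1.07e-06) and Bach2 by 0.17, while Foxo1, which drives Il7r in T cells, rose by 0.45 ± 0.03. The rise of Il7r lay between those of Gimap6 and Gimap3. With arrays scaled on the labelling transcripts, 10 of the 11 were called higher and 1 lower. Over all 13101 genes that scaling gave 12063 higher and 718 lower.

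Among transcription factors of lymphocytes, 6 of 10 were called higher, against 39.9% of all genes, and 2 lower, against 25.5%, with a median of 0.19. Scaling on ribosomal protein genes gave 6 higher and 4 lower, against 3551 and 4602 of all 13101 genes. Tox, a factor of T cell development, rose by 0.53 ± 0.04 and Ikzf3 (Aiolos) by 0.50 ± 0.04. Myb, which dividing progenitors use, fell by 0.54. Runx1 was lower at its brightest probe set, at -0.13 ± 0.04, and called lower at another (-0.24) but higher at a different one (0.63), so its direction is not settled. The lower calls of Myb and Runx1 were not kept with scaling on the labelling transcripts. With it 9 of the 10 genes were called higher and none lower, against 12063 and 718 of all 13101 genes.

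Markers of the cells that carry GIMAP proteins moved in the same arrays. Of 16 measured T cell markers, 15 were called higher, against 39.9% of all genes. Their median was 0.40, and 6 of the 16 exceeded the GIMAP median of 0.56. Bcl11b, a transcription factor of T cell identity, rose by 0.72 ± 0.03 and the costimulator Cd27 by 0.68 ± 0.05. Zap70, a kinase of T cell receptor signalling, was the exception at -0.06 ± 0.04 (limma adjusted p = 0.285), but its 2 other probe sets were called higher, at 0.21 and 0.48. Scaling on ribosomal protein genes left 14 of the 16 called higher and 1 lower, against 3551 and 4602 of all 13101 genes. Summed on the linear scale, the T cell markers lay at 6993 to 7094 in control and at 9810 to 9863 in PFOS. The 8 GIMAP genes summed to 10170 to 10390 in control and to 14760 to 14950 in PFOS. Probe sets differ in affinity and bright ones dominate a sum, so each sum is read only between groups and not against another list.

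Of 15 measured B cell markers, 13 were called higher, against 39.9% of all genes, with a median of 0.43. Cd79a, a signalling chain of the B cell antigen receptor, rose by 0.62 ± 0.03 and Cr2, a complement receptor, by 0.60 ± 0.03. The exceptions were Pax5 at 0.04 ± 0.04 (limma adjusted p = 0.370) and Ighm at 0.03 ± 0.02 (limma adjusted p = 0.356). Of the 7 other Ighm probe sets, 5 were called higher, by 0.06 to 1.11, and 2 were not called, so its direction is given for the brightest only. The summed linear level of B cell markers went from 53850 to 54080 in control to 61960 to 62030 in PFOS. The share of the GIMAP rise that goes with more T or B cell RNA was not tested.

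Of 10 natural killer cell markers, 5 were called higher and 2 lower, with a median of 0.10, shares near the 39.9% and 25.5% of all genes. The transcription factors Tbx21 and Eomes rose by 0.38 ± 0.03 and 0.30 ± 0.03, whereas the granule protease Gzma fell by 0.52 and the receptor Ncr1 by 0.11. Their summed linear level was 2540 to 2584 in control and 2444 to 2487 in PFOS, so the sum was lower in PFOS while the list median was above 0. Of 13 endothelial markers, 6 were called higher, near the 39.9% of all genes, and 1 lower, with a median of 0.09. Pecam1 rose by 0.46 ± 0.03, Kdr by 0.38 ± 0.04, and Eng fell by 0.13. Endothelial markers summed to 4220 to 4239 in control and 4476 to 4512 in PFOS. With scaling on the labelling transcripts the falls of Gzma, Ncr1 and Eng were not kept. Then 9 of 10 natural killer and 13 of 13 endothelial markers were called higher, and none lower. Over all 13101 genes that scaling gave 12063 higher and 718 lower. Scaling on ribosomal protein genes gave 3 higher and 4 lower among the endothelial markers, against 3551 and 4602 of all 13101 genes.

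Of 13 red pulp macrophage markers, 10 were called higher, against 39.9% of all genes, with a median of 0.31. Their summed levels were 16930 to 17260 in control and 22360 to 22610 in PFOS. Vcam1 rose by 0.68 ± 0.03 and Spic, the transcription factor of these cells, by 0.57 ± 0.03. Neutrophil markers went the other way, with 7 of 8 called lower, against 25.5% of all genes, and a median of -0.79. The granule proteins Lcn2, Ltf, Camp, Ngp and Mpo fell by 1.48, 0.96, 0.96, 0.84 and 0.74. The calcium-binding proteins S100a9 and S100a8 fell by 0.37 and 0.32, which turned to rises with scaling on the labelling transcripts, and the protease Elane rose by 0.11 ± 0.04, a call lost with scaling on ribosomal protein genes. Their sums were 5744 to 5844 in control and 3960 to 4060 in PFOS. RMA gives no value of 0, so no marker could be listed as absent, and whether these cells add to the GIMAP signal was not tested.

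**Figure D4:**
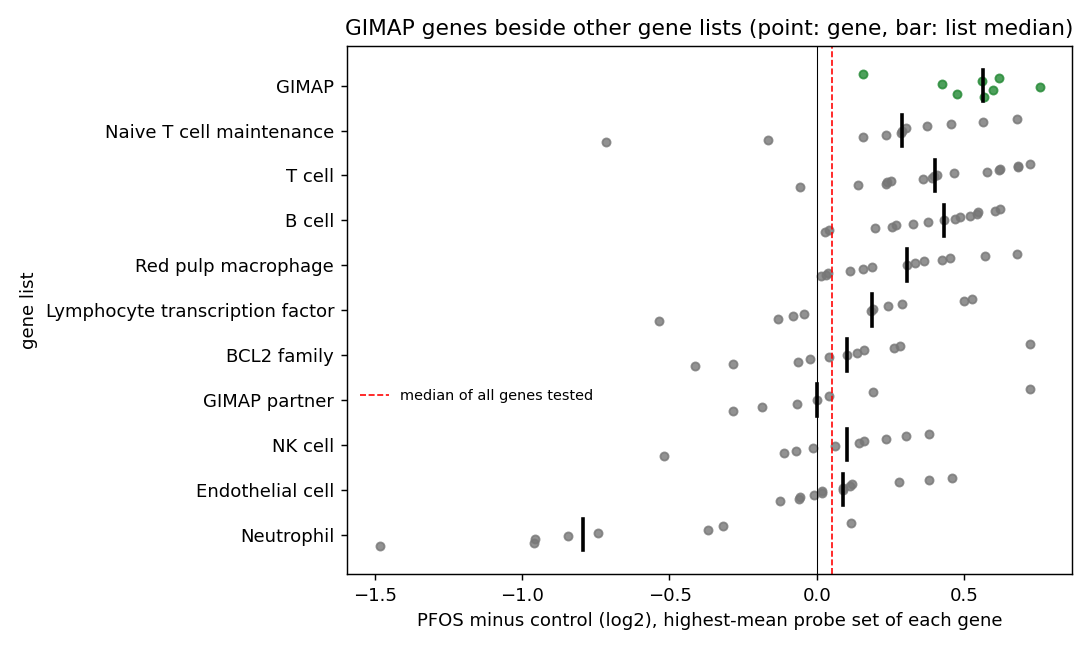
PFOS minus control change (log2) of each measured gene, by its brightest probe set, in the GIMAP family (green) and in 10 other lists (grey); black bars are list medians and the dashed red line is the median of all genes tested (0.05). The GIMAP median of 0.56 lies to the right of the medians of T cell (0.40) and B cell (0.43) markers, with Gimap1 (0.16) apart from its family. With scaling on the labelling transcripts all points move right by 0.53 together, which turns the direction of the single falls smaller than that.

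The genes whose profile over the 6 arrays was most like the mean GIMAP profile were sought among 13093 other genes, by the Euclidean distance between profiles after each gene's mean was removed. They were Hvcn1 (distance 0.015), Dock5 (0.025), Fcer2a (0.029), Cxcl13 (0.031) and Mcemp1 (0.034), against a median distance of 0.58 over all candidates. Hvcn1 encodes a proton channel, Dock5 an activator of the GTPase Rac, Fcer2a the IgE receptor CD23 and Cxcl13 a B cell chemokine. Their rises ran from 0.51 ± 0.03 in Dock5 to 0.53 ± 0.02 in Mcemp1. The GIMAP genes themselves lay at 0.062 (Gimap4) to 0.45 (Gimap1) from their mean profile, farther than these 5, which were picked as the nearest of many. The distance over 6 arrays in 2 groups mostly measures the size of the rise.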

How the data were processed

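Expression was measured in 6 spleens on Affymetrix Mouse430_2 arrays, from biotin-labelled cRNA made from 6 ug of total RNA, per the labels' protocols. The authors made the deposited log2 values with RMA, per the submitters' processing notes; the version of RMA is not given in the sources used here. The table held 45101 probe sets, of which 64 were controls, 34945 had 1 gene symbol, 932 several and 9160 none. Of those with 1 symbol, 34741 matched the RefSeq gene table by gene identifier, and 0 symbols changed.

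Probe sets with 1 symbol and a mean over the arrays at or above the 40th percentile (a log2 value of 5.62) were tested with limma 3.58.1 in R 4.3.3 (lmFit and eBayes, two-sided, Benjamini-Hochberg adjustment over 22434 probe sets, calls at adjusted p under 0.05). For lists and pairs, the probe set with the highest mean stood for its gene (13101 genes). All members are named; of a list, the 2 largest called rises and falls are named, or the whole list where at most 8 genes were measured. Some list genes are not analysed here. Foxo1, Zap70, Pax5, Ighm and Ttr were added after their values were seen. Members and lists were chosen with earlier results of these data known.

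The replicate numbers of the labels were checked as pairs. Deviations from the group means of same-numbered arrays correlated at 0.34, 0.15 and 0.10, which comes from the data alone. Control 3 with PFOS 2 (0.13) and control 2 with PFOS 3 (0.12) exceeded the lowest of these. Differently numbered pairings with a replicate 1 array gave -0.23 to -0.19, so the replicate 1 arrays of both groups deviated alike. Alternatives covered a block on the replicate numbers, the filter, scaling, the choice of probe sets, the variance prior and leaving out each array. Sequences are from RefSeq.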

Additional observations from a re-analysis of the deposited data

How the results depend on the processing

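Under the 16 alternatives all 172 changes of GIMAP probe sets kept their direction and their call, with Gimap1 closest to the threshold (adjusted p from 1.91e-07 with scaling on the labelling transcripts to 0.0456 with scaling on ribosomal protein genes). With the replicate block all 11 GIMAP probe sets stayed called higher and the median change stayed at 0.56, while 8516 probe sets were called higher and 6378 lower over the whole array; the block changed no GIMAP call. The GIMAP median was 0.52 when _s_at, _x_at and _a_at probe sets were left out, 0.60 with quantile normalization, 0.49 with scaling on ribosomal protein genes and 1.09 with scaling on the labelling transcripts, and it ran from 0.55 to 0.57 when single arrays were left out. Over all probe sets, 8176 were called higher and 6151 lower; with 1 probe set per gene the counts were 5324 and 3406, since fewer were tested. Scaling on ribosomal protein genes gave 5439 higher and a median change of all probe sets of -0.037, and scaling on the labelling transcripts gave 20551 higher, 1151 lower and a median of 0.57. The share of calls that were higher was thus 57.1% in the deposited values, 39.3% with the former and 94.7% with the latter; the cause was not tested. With the mean over the probe sets of a gene, 22 of 28 pairs separated the groups in place of 21. Detection calls were not used here, so signal over background is unknown.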
